A study of Mus musculus with 16 samples.

Results

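The genes described here were 43 cell cycle and DNA replication genes, picked by name from the 17951 genes of the deposited expression table. The rule itself uses no measured value, but it was written with earlier results of these data known. They comprised 11 replication and nucleotide supply genes, 21 mitosis genes, 8 G1 genes (cyclins, kinases and the transcription factor E2f1), and 3 inhibitors of cyclin dependent kinases. The list named 44 genes, of which Ccne1 was not analysed here. RNA had been sequenced from microglia, the resident macrophages of the brain, sorted as Cd11b+ and Cd45+ cells from mice injected with Methoxy-X04 (Me-X04), a dye that enters the brain and stains Aβ aggregates. The sorted populations compared were 7 WT libraries from mice labelled 2 months old, and, from 5xFAD transgenic (TG) mice labelled 6 months old, 5 libraries of Me-X04- cells, which carried no dye, and 4 libraries of Me-X04+ cells, which had taken up dye-stained material. The labels gave 5xFAD as the strain of every mouse, WT included. In the 5xFAD line the transgenes are driven by the neuronal Thy1 promoter. The TG libraries numbered 1 to 4 carry the same label (TG1 to TG4) in both fractions and are read here as the fractions of 1 mouse each, whereas WT libraries of the same number are labelled as other mice. Age and genotype go together in the labels and cannot be told apart in either comparison with WT; the methods of the study give other ages, closer to each other.

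The libraries held 15623664 to 27579017 reads on the listed genes. Reads from mitochondrial genes made up 10.96 to 24.1% of the reads in WT, 18.2 to 35.6% in TG Me-X04- against 27.2 to 44.8% in TG Me-X04+ libraries. Genes at 0 reads numbered 55 to 1381 in WT, 83 to 703 in TG Me-X04- and 450 to 1831 in TG Me-X04+ libraries. TG Me-X04+ libraries 1 to 4 had 1831, 1781, 524 and 450. All 10 microglia markers examined were measured, with a summed level of 4357 to 8365 RPKM (reads scaled for gene length and library size) over the 16 libraries, and Tmem119 among them fell in TG Me-X04+ microglia (log2FC -1.58, adjusted p = 0.00821, limma). Among markers of other cells, 3 of 10 neutrophil and granulocyte precursor genes were measured, at a summed 0.3996 to 12.7 RPKM in WT, 0.489 to 26.0 in TG Me-X04- against 0.3996 to 20.99 in TG Me-X04+ libraries. The medians were 0.660, 0.599 and 7.93 RPKM in the same order. The summed level of 6 border macrophage genes was 1.74 to 6.88 RPKM in TG Me-X04- against 2.76 to 20.8 in TG Me-X04+ libraries, and none of the 6 was called. Of 8 lymphocyte markers 1 was measured, at 0.0657 to 0.891 RPKM. Markers of the remaining cell types were measured for 4 of 6 monocyte genes (1.21 to 10.2 RPKM over all libraries), 3 of 7 oligodendrocyte genes (0.803 to 6.45), 5 of 6 astrocyte genes (9.86 to 29.7), 3 of 7 neuron genes (0.106 to 1.91), 3 of 5 erythroid genes (0.646 to 3.94) and 2 of 6 endothelial and mural genes (1.13 to 12.5), and among all markers of other cells Flt1, of the last list, was called between the TG fractions (log2FC 3.55, adjusted p = 0.00608, limma). Pecam1, the other measured gene of that list, had the opposite sign without being called (log2FC -2.47, adjusted p = 0.233, limma). The part of these cells in the results was not tested. Besides their groups, the libraries parted into 2 sets by the leading principal component of each library's deviation from its group mean (37.8% of that variance), set A (WT 1 to 3 with libraries 1 and 2 of each TG fraction) against set B (the other 9), and differences within each set are given beside the main results.

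Cells commit to division in G1, when D-type cyclins with Cdk4 and Cdk6 release E2F factors, and inhibitors such as p21 (Cdkn1a) and p27 (Cdkn1b) hold the kinases back. E2F factors then drive the genes of DNA replication, among them the Mcm helicase and the enzymes of deoxynucleotide synthesis, and the genes of mitosis follow in G2 and M phase. Microglia renew themselves by slow local division, and in mouse models with amyloid plaques cells near plaques are known to divide more often. In sorted bulk RNA, more cells in division and more RNA per dividing cell cannot be told apart.

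Between the TG fractions, 4 of the 43 members were differentially expressed (DE), that is, they passed limma at 0.05 after Benjamini-Hochberg adjustment over the 17951 genes and differed by 0.7 or more in log2 fold change (log2FC). Mki67, Cenpe and Tyms rose in TG Me-X04+ microglia, where 3.44% of all genes did so, and Ccnd1 fell, as did 2.06% of all genes. The median log2FC of the members was 0.73, against -0.09 for all genes. It differed between the roles: 0.97 for the mitosis genes, 0.47 for replication, -0.10 for the G1 cyclins and kinases and -0.01 for the inhibitors. The log2FC was above 0 for 32 members (74.4%), against 44.4% of all genes, and 9 members (20.9%) had an unadjusted p under 0.05, against 18.7% of all genes.

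The share of genes with a positive log2FC was largest for the mitosis genes (90.5%), against 72.7% for replication, 50% for G1 and 33.3% for the inhibitors. The shares called higher were alike, at 9.52% of the mitosis and 9.09% of the replication genes. An unadjusted p under 0.05 by limma was held by 23.8% and 27.3% of them, against 18.7% of all genes. The mean log2 RPKM over the 21 genes was -1.56, -1.76, -1.24, -0.76 and -1.30 in the TG Me-X04- libraries 1 to 5 and -0.10, 0.04, -0.48 and 0.05 in the TG Me-X04+ libraries 1 to 4, so that the fractions did not overlap. In WT libraries it ranged from -2.56 to -1.26, with a median of -1.71, all below the TG Me-X04+ libraries and overlapping the TG Me-X04- ones. Per 1000000 reads of a library, with no other scaling, the 21 genes together held 49.0 to 90.8 in TG Me-X04- against 132 to 228 in TG Me-X04+ libraries, and 44.4 to 68.1 in WT. A large part of this sum was Mki67. It gave 2917 of 5118, 3092 of 5752, 1127 of 3087 and 1407 of 3966 reads in TG Me-X04+ libraries 1 to 4. In TG Me-X04- libraries 1 to 5 it gave 501 of 1344, 353 of 1235, 477 of 1780, 563 of 1911 and 355 of 1563. Of the 21 genes, 19 had a positive log2FC between the TG fractions, both as deposited and after scaling by reads outside mitochondrial genes, and 20 after quantile normalization. Their values did not overlap between the fractions for 7 genes, each higher in TG Me-X04+, which held for 4.8% of all genes, and 0 were lower without overlap (3.14% of all genes). Within the 4 mice, 9 mitosis genes were higher in the Me-X04+ fraction of every mouse (15.1% of all genes) and 0 were lower in every mouse (13.1%).

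**Figure D1:**
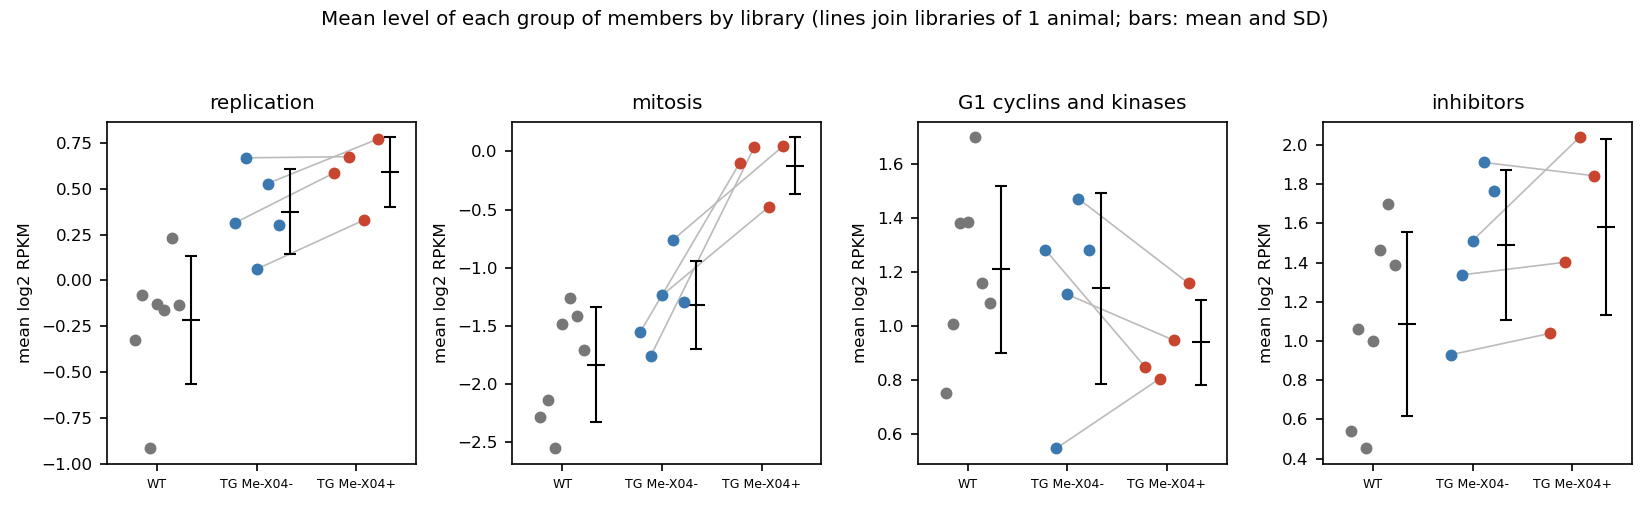
Mean log2 RPKM (y axis) of the replication, mitosis, G1 and inhibitor genes in each library of the 3 groups of microglia (x axis). Points are libraries, grey lines join the fractions of 1 mouse and bars show the mean and SD; the mitosis panel alone parts the TG fractions, with the 4 TG Me-X04+ libraries between -0.48 and 0.05.

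Mki67 (GRCm38 chr7:135689784-135716361, minus strand) encodes the proliferation antigen Ki-67, which coats the chromosomes of dividing cells. Its level was 1.60, 0.82, 0.79, 1.15 and 0.53 log2 RPKM in the TG Me-X04- libraries 1 to 5 and 4.45, 4.36, 2.29 and 2.57 in the TG Me-X04+ libraries 1 to 4, from 353 to 563 and from 1127 to 3092 reads. The highest TG Me-X04- library lay below the lowest TG Me-X04+ one. WT libraries ranged from -1.20 to 0.52 with a median of -0.09, the highest just below the lowest TG Me-X04- library (0.53). WT library 7 held 347 of 19307882 reads and TG Me-X04- library 2 held 353 of 25184600, so this order rests on the scaling. Mki67 rose 5.43-fold between the TG fractions (log2FC 2.44, SE 0.50, adjusted p = 0.00821, limma). The difference within mice 1 to 4 was 2.86, 3.53, 1.50 and 1.42 on the log2 scale, and 3.20 in set A against 1.61 in set B. The call held in all 16 alternative analyses and without each of the 9 TG libraries in turn.

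Cenpe (chr3:135212537-135273611, plus strand) encodes the kinetochore motor CENP-E, which moves chromosomes to the spindle equator. It stood at -0.93, -0.36, -2.20, -1.25 and -1.42 log2 RPKM in TG Me-X04- against at 2.34, 1.32, -0.12 and 0.34 in TG Me-X04+ libraries. The fractions did not overlap, and libraries 1 and 2 were the highest of each. Cenpe rose 4.60-fold (log2FC 2.20, SE 0.60, adjusted p = 0.0408, limma), by 2.47 in set A and 1.73 in set B. This call was the least stable of the 4. It was lost without TG Me-X04- replicate 1, 3, 4 or 5 or TG Me-X04+ replicate 1 or 2, at adjusted p from 0.0592 to 0.122. With mouse as a replicate block in the TG libraries alone it was 2.16 on the log2 scale at an adjusted p = 0.0595, as limma gave it.

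Ube2c and Top2a had the largest differences among the members without being called. Ube2c (chr2:164769898-164778822, plus strand), the ubiquitin conjugating enzyme of the anaphase promoting complex, stood at -0.75, -2.71, -1.42, -0.44 and -2.37 log2 RPKM in TG Me-X04- against at 2.31, 1.34, 0.84 and 1.66 in TG Me-X04+ libraries, that is, 6 to 46 reads against 97 to 191. The fractions did not overlap, and TG Me-X04- held few reads. The log2FC was 3.07 (SE 0.90, adjusted p = 0.0568, limma), and the difference was positive in all 4 mice (3.05, 4.05, 2.26 and 2.10) and in both sets (3.55 in A, 2.66 in B). With mouse as a replicate block in the TG libraries alone Ube2c passed (log2FC 2.87, adjusted p = 0.0225, limma), as it did in 10 of the 15 alternatives that kept the gene. Without strand information, reads over the 22.8% of the Ube2c exonic bases that Tnnc2 covers on the opposite strand cannot be assigned to either gene. Top2a (chr11:98992943-99024189, minus strand), the topoisomerase that untangles replicated chromosomes, went from -0.68, -2.49, -1.64, -1.02 and -0.99 to 1.95, 2.41, 0.07 and 0.51 log2 RPKM. Its log2FC was 2.60 (SE 0.84, adjusted p = 0.0834, limma), larger in set A (3.77) than in set B (1.51), and it passed in 6 of 15 alternatives. With mouse as a random effect, a replicate block that keeps all 16 libraries, 7 members were called, adding Ube2c, Top2a and Pcna to the 4. Calls over all genes rose as well, from 617 higher and 369 lower to 1127 and 983.

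**Figure D2:**
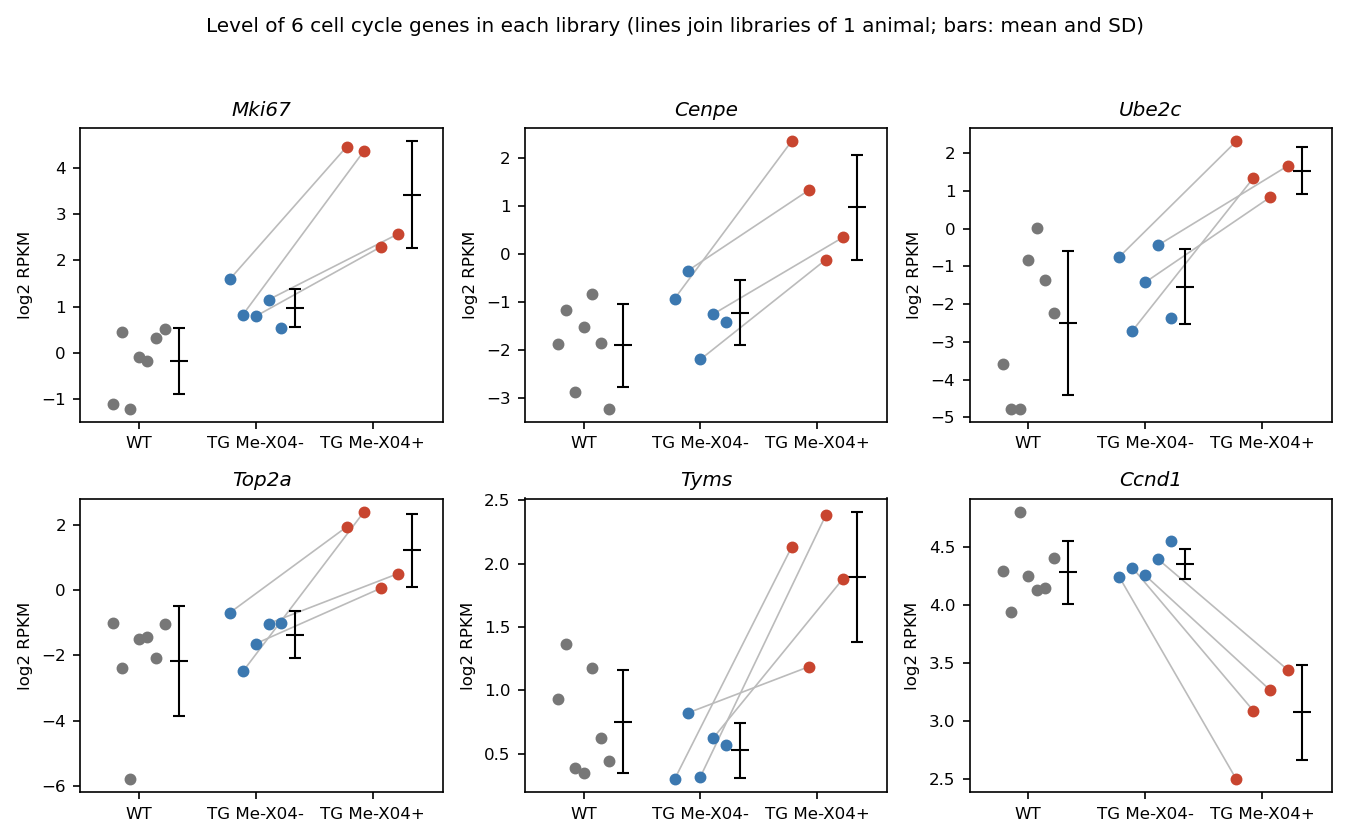
Level in log2 RPKM (y axis) of Mki67, Cenpe, Ube2c, Top2a, Tyms and Ccnd1 in each library of the 3 groups (x axis), with grey lines joining the fractions of 1 mouse and bars for mean and SD. The TG fractions do not overlap in any of the 6 panels, and Ccnd1 alone lies lower in TG Me-X04+ (2.50 to 3.44) than in TG Me-X04- (4.24 to 4.56).

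The remaining mitosis genes did not pass. Kif11, the motor that pushes the spindle poles apart, read -2.78, -0.63, -0.53, -0.62 and -0.77 log2 RPKM in TG Me-X04- against -0.20, 2.10, 1.05 and 0.24 in TG Me-X04+ libraries (log2FC 1.86, SE 0.82, adjusted p = 0.223, limma). Its fractions did not overlap, nor did those of Tpx2, a spindle assembly factor (log2FC 1.31), and Stmn1, a microtubule destabiliser (0.85). Cdk1, the kinase that starts mitosis, read -4.46, -2.94, -1.83, -2.24 and -2.37 against -1.17, -3.25, -0.97 and -1.47 log2 RPKM (log2FC 1.06, SE 0.81, adjusted p = 0.54, limma). Ccnb1, the cyclin that partners Cdk1, rested on 0 to 19 reads in TG Me-X04- against 6 to 14 in TG Me-X04+ libraries (log2FC 1.46, SE 0.77, adjusted p = 0.333, limma). Both were carried by few reads and their fractions overlapped. Ccna2 and Kif20a, a cyclin and a motor of cell division, were higher in every mouse without being called (0.78 and 0.72 on the log2 scale), and 12.5% and 29.3% of their exonic bases overlap Exosc9 and Cdc23. Among the rest the log2FC ran from -0.80 for Aurka, the spindle pole kinase, to 1.76 for Kif23, a motor of the central spindle. Birc5, the survivin subunit of the chromosomal passenger complex, differed in direction between the sets of libraries, by 3.17 in set A and -0.87 in set B.

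Promoters were read for the members because mitosis genes are known to share the CHR element (TTTGAA) and CCAAT boxes, to which the DREAM complex and NF-Y bind, and replication genes an E2F site, searched here as GCGGGAA. RefSeq promoter windows (GRCm38.p6) matched 34 members with 39 windows, each cut to the 250 bases before the annotated start, and both strands were searched. A CCAAT box was found in 15 of 16 mitosis windows (93.8%) and 11 of 12 replication windows (91.7%), against 33.8% of all 32851 windows. The CHR letters were in 7 of 16 mitosis windows (43.8%) and 1 of 12 replication windows (8.33%), against 16% of all windows. The E2F letters were in 0 of 16 mitosis windows and 4 of 12 replication windows (33.3%), against 3.82% of all windows. A match describes letters only and shows no binding. The windows printed here are of 3 mitosis genes with large differences and of Tyms, the replication gene called, in which none of the searched letters was found; capitals mark the CHR and CCAAT letters on either strand (ATTGG and TTCAAA are the same boxes read from the other strand), 5′ to 3′ along the gene's strand. In Ube2c adjacent boxes overlap, and the last 31 bases, which lie inside the GENCODE M21 gene and hold its CHR match, were left off.
Mki67 promoter, chr7:135716380-135716629, minus strand: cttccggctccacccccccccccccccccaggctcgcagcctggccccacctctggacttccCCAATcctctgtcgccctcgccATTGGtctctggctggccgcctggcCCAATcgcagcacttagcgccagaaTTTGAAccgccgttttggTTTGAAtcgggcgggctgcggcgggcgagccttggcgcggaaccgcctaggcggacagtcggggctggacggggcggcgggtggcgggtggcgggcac
Top2a promoter, chr11:99024190-99024439, minus strand: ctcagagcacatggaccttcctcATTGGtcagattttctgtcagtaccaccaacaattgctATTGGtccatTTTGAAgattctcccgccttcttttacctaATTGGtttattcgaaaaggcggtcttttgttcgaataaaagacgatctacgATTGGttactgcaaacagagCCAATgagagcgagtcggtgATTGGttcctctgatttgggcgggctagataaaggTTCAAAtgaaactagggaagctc
Ube2c promoter, chr2:164769679-164769897, plus strand: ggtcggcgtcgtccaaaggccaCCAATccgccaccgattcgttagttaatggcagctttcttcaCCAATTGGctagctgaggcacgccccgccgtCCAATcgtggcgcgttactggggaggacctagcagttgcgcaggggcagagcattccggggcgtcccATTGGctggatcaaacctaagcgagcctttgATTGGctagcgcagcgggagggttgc
Tyms promoter, chr5:30073626-30073875, minus strand: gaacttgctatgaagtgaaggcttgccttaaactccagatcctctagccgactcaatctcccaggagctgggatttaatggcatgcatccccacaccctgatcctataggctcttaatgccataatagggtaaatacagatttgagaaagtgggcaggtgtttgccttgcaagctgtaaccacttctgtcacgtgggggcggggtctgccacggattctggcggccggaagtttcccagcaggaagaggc

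Mki67 held 2 CHR matches, at 116 and 98 bases before its start, and 3 CCAAT boxes, whereas Top2a held 2 and 6. The window of Cenpe had 1 CCAAT box, 12 bases before the RefSeq start, and no CHR match.

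The replication genes as a group showed less separation between the TG fractions than the mitosis genes. Their mean was 0.31, 0.67, 0.06, 0.53 and 0.30 log2 RPKM in TG Me-X04- against 0.59, 0.67, 0.33 and 0.77 in TG Me-X04+ libraries, which overlapped, and their summed reads per 1000000 overlapped too, at 77.2 to 121 against 85.4 to 117. Of the 11 genes, 1 rose (Tyms), 0 fell, and 8 had a positive log2FC, which became 6 after scaling by reads outside mitochondrial genes. Tyms (chr5:30058202-30073617, minus strand) encodes thymidylate synthase, the enzyme that makes thymidylate for DNA. It stood at 0.30, 0.82, 0.32, 0.62 and 0.56 log2 RPKM in TG Me-X04- against 2.13, 1.19, 2.38 and 1.88 in TG Me-X04+ libraries, without overlap. WT libraries ranged from 0.34 to 1.36, above the lowest TG Me-X04+ library at their upper end. Tyms rose 2.58-fold (log2FC 1.37, SE 0.32, adjusted p = 0.0188, limma), by 1.10 in set A and 1.63 in set B. The call was lost without TG Me-X04+ replicate 3 (1.21, adjusted p = 0.0589, limma), with mouse as a replicate block in the TG libraries alone (1.38, adjusted p = 0.104, limma), and after scaling by reads outside mitochondrial genes (0.98, adjusted p = 0.0993, limma). Pseudogenes named after 5 members are annotated, 2 for Pcna and 1 each for Tyms, Ccnb1, Ccnb2 and Ccnd3. How reads shared with them were counted is not given, and such reads may have affected these levels.

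The 6 helicase subunits did not move together. Mcm5 read 0.19, -0.54, -0.43, -0.30 and -0.96 log2 RPKM in TG Me-X04- against -2.85, -2.44, -1.96 and -1.73 in TG Me-X04+ libraries, from 41 to 68 and from 5 to 22 reads. It was lower in all 4 mice without overlap, yet was not called (log2FC -1.84, SE 0.77, adjusted p = 0.194, limma). Its WT libraries spread from -4.45 to -0.05 and covered both fractions. Mcm2 read 0.75, -0.75, -0.54, -0.10 and -0.63 against -1.07, 1.10, -1.26 and 0.32 (log2FC 0.03, SE 0.61, adjusted p = 0.987, limma). The 4 others lay at -0.86 (Mcm7), -0.54 (Mcm3), 0.30 (Mcm4) and 0.47 (Mcm6) on the log2 scale. Pcna, the sliding clamp of the replication fork, read 3.65, 4.45, 3.51, 3.13 and 3.26 in TG Me-X04- against 4.98, 4.77, 4.15 and 3.63 in TG Me-X04+ libraries. It was higher in all 4 mice (log2FC 0.78, SE 0.30, adjusted p = 0.16, limma), by 0.83 in set A and 0.59 in set B. Pcna passed with mouse as a random effect (0.75, adjusted p = 0.042, limma) and with a term for the 2 sets (0.72, adjusted p = 0.0204, limma). The sets were drawn from these same values, so that term lowers the spread by construction. Calls over all genes, 617 higher and 369 lower in the main fit, rose under both. They were 1127 and 983 with the random effect and 1324 and 818 with the term. Rrm2, the small subunit of ribonucleotide reductase, read -1.46, -2.80, -2.98, -2.19 and -2.46 against -0.28, -4.86, -0.46 and 0.08 log2 RPKM. Its TG Me-X04+ library 2 held 0 reads, where the other 3 held 29 to 67 (log2FC 1.00, SE 0.99, adjusted p = 0.648, limma). Over all genes, TG Me-X04+ library 2 had 1781 at 0 reads, against 1831, 524 and 450 in libraries 1, 3 and 4. Rrm1, the large subunit of ribonucleotide reductase, had a log2FC of 0.49, and Uhrf1, which guides maintenance of DNA methylation, 1.16.

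Among the regulators of G1, Ccnd1 (cyclin D1, chr7:144929931-144939925, minus strand), the partner of Cdk4 and Cdk6, was the member that fell. It stood at 4.24, 4.33, 4.26, 4.40 and 4.56 log2 RPKM in TG Me-X04- against 2.50, 3.09, 3.26 and 3.44 in TG Me-X04+ libraries, from 1196 to 2216 and from 285 to 980 reads. The WT libraries, at 3.94 to 4.81 with a median of 4.25, lay with TG Me-X04- and all above TG Me-X04+. Ccnd1 fell by 1.28 on the log2 scale (SE 0.21, adjusted p = 0.00194, limma). The difference in mice 1 to 4 was -1.75, -1.24, -1.0 and -0.96, and -1.49 in set A against -1.05 in set B. Its call held in all 16 alternatives and without each TG library. Of the Ccnd1 exonic bases, 23.4% overlap LTO1, as GENCODE M21 spells it, on the opposite strand; that gene averaged 3.00 log2 RPKM in TG Me-X04- against 2.41 in TG Me-X04+ libraries (log2FC -0.59, adjusted p = 0.0987, limma).

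The other D-type cyclins did not pass. Ccnd3 read 2.60, 0.78, 2.51, 2.97 and 3.04 log2 RPKM in TG Me-X04- against 1.70, 0.10, 2.02 and 1.98 in TG Me-X04+ libraries. It was lower in all 4 mice with overlap between the fractions (log2FC -0.93, SE 0.56, adjusted p = 0.401, limma). Ccnd2 was near the limit of detection, with 4 to 28 reads in TG Me-X04- against 0 to 16 in TG Me-X04+ libraries (log2FC -0.64, SE 0.96, adjusted p = 0.782, limma). The kinases of G1 were steadier. Cdk4 read 4.33, 4.29, 3.88, 4.01 and 3.71 against 4.16, 3.80, 4.38 and 4.33 (log2FC 0.12, SE 0.19, adjusted p = 0.802, limma), and Cdk6 read 3.37, 3.29, 3.61, 3.56 and 4.14 against 3.83, 3.94, 3.40 and 4.28 (0.27, SE 0.23, adjusted p = 0.592, limma). Cdk2, which acts at the entry into S phase, had a log2FC of -0.31 and its cyclin Ccne2 one of 0.22. E2f1 had one of 0.97 (SE 1.01, adjusted p = 0.671, limma), with overlap between the fractions. It was higher in all 4 mice, but on 0 to 28 reads in TG Me-X04- against 2 to 41 in TG Me-X04+ libraries. In mouse 1 this was 1 read against 2. After scaling by reads outside mitochondrial genes 1 of the 8 genes stayed positive, where 4 were positive as deposited.

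Of the inhibitors, Cdkn1a (p21) read 2.12, 1.54, 1.98, 3.24 and 2.16 log2 RPKM in TG Me-X04- against 0.59, 1.66, 3.29 and 3.24 in TG Me-X04+ libraries (log2FC -0.01, SE 0.61, adjusted p = 0.996, limma). In TG Me-X04+ it was lowest in libraries 1 and 2, those of set A. Cdkn1b (p27) read 2.08, 2.96, 2.99, 2.84 and 3.26 against 2.91, 1.42, 2.65 and 3.01 (log2FC -0.33, SE 0.31, adjusted p = 0.636, limma). Cdkn2c (p18), an inhibitor of Cdk4 and Cdk6, read -1.42, -0.50, -0.44, -0.35 and -0.13 against -0.38, 1.12, 0.17 and -0.73 (log2FC 0.61, SE 0.57, adjusted p = 0.628, limma). None was higher or lower in all 4 mice, and the number above 0 was 1 as deposited and 2 after quantile normalization.

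**Figure D3:**
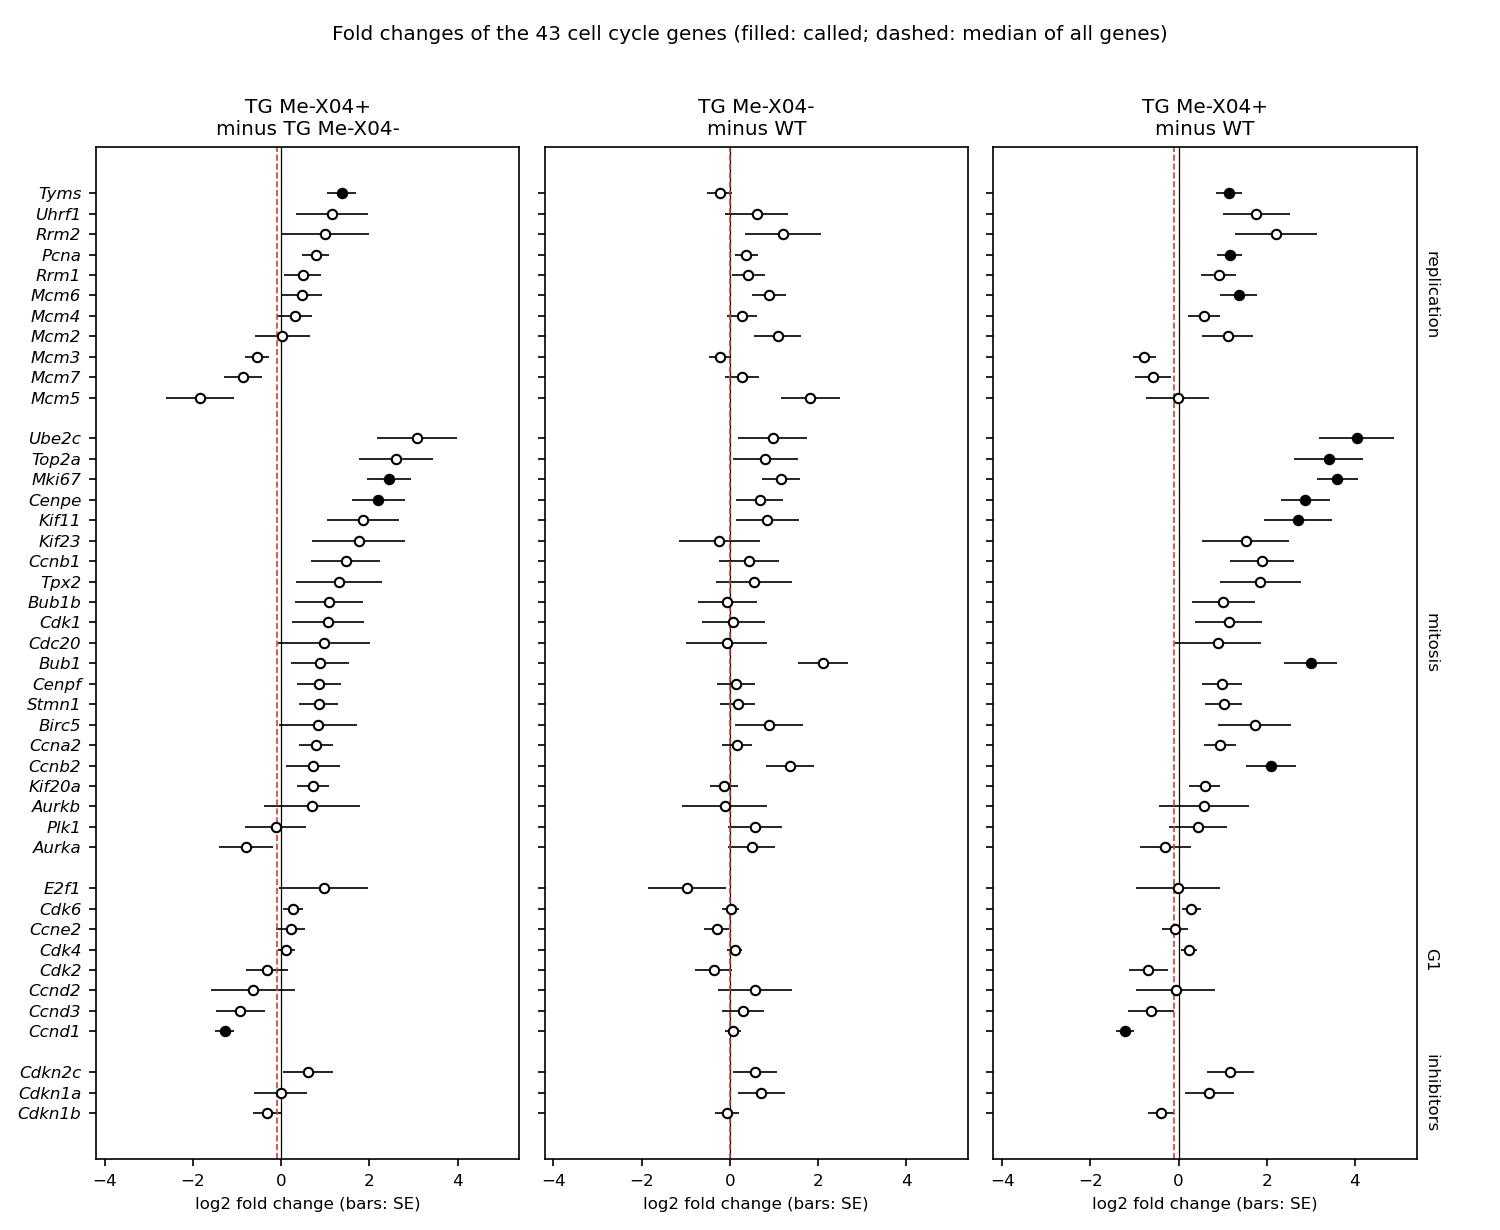
Log2 fold change (x axis) of each of the 43 members (y axis, grouped by role) in the 3 comparisons. Filled points are called, bars are the SE and the dashed line is the median of all genes, at -0.09, 0.01 and -0.11; TG Me-X04+ minus TG Me-X04- has 4 filled points, TG Me-X04- minus WT has 0 and TG Me-X04+ minus WT has 11.

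Against WT, no member passed the test in TG Me-X04- microglia. The limma test called 0 of 43, and limma voom on recovered reads likewise 0. So few of all genes passed, 34 higher (0.189%) and 2 lower (0.0111%), that a count of 0 among the members does not show that their levels were equal. At an unadjusted p under 0.05 there were 5 members (11.6%), against 5.18% of all genes. The median log2FC of the members was 0.37, against 0.01 for all genes. Of the 43 members 32 (74.4%) were above 0, against 51.6% of all genes. The largest value was that of Bub1, a kinase of the spindle checkpoint, which stood at -0.79, -2.99, -1.83, -2.66 and -2.39 log2 RPKM in TG Me-X04- against from -5.51 to -3.16, median -3.90, in WT libraries. These groups did not overlap, on 9 to 40 and 0 to 9 reads (log2FC 2.12, SE 0.57, adjusted p = 0.26, limma). Mki67 did not overlap either, with the highest WT library at 0.52 and the lowest TG Me-X04- library at 0.53 log2 RPKM (log2FC 1.16, SE 0.44, adjusted p = 0.744, limma). The share of all genes without overlap was not counted for this comparison. Mcm5 (1.82), Ccnb2 (1.37), Rrm2 (1.21) and Mcm2 (1.08) followed in size, each with overlapping groups. Ccnd1 was at 0.07.

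Against the same WT libraries, TG Me-X04+ microglia had 10 members higher and 1 lower, where 8.25% of all genes rose and 6.02% fell. This comparison shares its TG Me-X04+ libraries with the one between the TG fractions and its WT libraries with the one before, so the 3 are not independent. The 7 mitosis genes among them were Ube2c (log2FC 4.04, SE 0.84, adjusted p = 0.00307), Mki67 (3.60, SE 0.47, adjusted p = 5.45e-05), Top2a (3.41, SE 0.78, adjusted p = 0.00619), Bub1 (3.00, SE 0.61, adjusted p = 0.00247), Cenpe (2.88, SE 0.56, adjusted p = 0.00189), Kif11 (2.71, SE 0.76, adjusted p = 0.0227) and Ccnb2 (2.09, SE 0.57, adjusted p = 0.0195), all by limma. Ccnb2, another partner of Cdk1, read 2.40, 1.16, -0.49 and 0.53 log2 RPKM in TG Me-X04+ libraries and -2.83 to 0.06, median -1.16, in WT. For Ube2c, Mki67, Top2a, Bub1 and Cenpe the groups did not overlap, while Kif11 and Ccnb2 overlapped. The share of all genes without overlap was not counted against WT. Within set A and set B the differences were 5.02 and 2.28 for Mki67, 6.19 and 2.35 for Ube2c, 5.24 and 1.80 for Top2a, 3.39 and 0.90 for Ccnb2, 3.45 and 2.11 for Kif11, 4.05 and 2.19 for Bub1, and 3.81 and 1.96 for Cenpe, each larger in set A. WT libraries 1 to 3 held 0 to 2 reads of Ube2c, where WT 4 to 7 held 11 to 65.

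The replication genes that rose against WT were Mcm6, Pcna and Tyms. Mcm6 read 0.78, 2.39, 0.85 and 0.58 log2 RPKM in TG Me-X04+ and -0.86 to 0.60, median -0.44, in WT libraries (log2FC 1.36, SE 0.42, adjusted p = 0.0356, limma). Set A differed by 2.23 and set B by 0.60. This call was lost without WT replicate 1, 2, 3, 5 or 6 or TG Me-X04+ replicate 2, at adjusted p from 0.0569 to 0.148. Pcna (1.16, SE 0.28, adjusted p = 0.00996, limma; 1.38 in set A, 0.86 in set B) held without each library in turn, and Tyms (1.14, SE 0.30, adjusted p = 0.0153, limma) was lost without TG Me-X04+ replicate 3 (0.98, adjusted p = 0.0583). Among the mitosis genes Ccnb2 was lost without TG Me-X04+ replicate 1 or 2 (adjusted p = 0.0764 and 0.0539, limma) and Kif11 without TG Me-X04+ replicate 2 or 3 (adjusted p = 0.0889 and 0.0547, limma). Rrm2 read -4.86 to -1.35, median -4.15, in WT libraries (log2FC 2.21, SE 0.92, adjusted p = 0.124, limma) and passed without TG Me-X04+ replicate 2 (3.37, adjusted p = 0.00903, limma). Ccnd1 fell by 1.21 on the log2 scale (SE 0.20, adjusted p = 0.000408, limma), by 1.55 in set A and 0.88 in set B.

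Side by side, the comparisons gave for Mki67 a log2FC of 1.16 (TG Me-X04- minus WT), 2.44 (TG Me-X04+ minus TG Me-X04-) and 3.60 (TG Me-X04+ minus WT). For Tyms they gave -0.23, 1.37 and 1.14, and for Ccnd1 0.07, -1.28 and -1.21. Bub1 had 2.12, 0.88 and 3.00, the larger step lying between WT and TG Me-X04-. Among the 43 members the mean level in TG Me-X04+ was highest for Pcna (4.38 ± 0.61 log2 RPKM, SD, n = 4), Cdk4 (4.16 ± 0.26), Cdk6 (3.86 ± 0.37), Mki67 (3.42 ± 1.15) and Ccnd1 (3.07 ± 0.41), and neighbours in this order differed by less than the larger of their SDs. In TG Me-X04- the order was Ccnd1 (4.36 ± 0.13, n = 5), Cdk4 (4.05 ± 0.27), Pcna (3.60 ± 0.52) and Cdk6 (3.59 ± 0.33), with Mki67 at 0.98 ± 0.41.

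**Figure D4:**
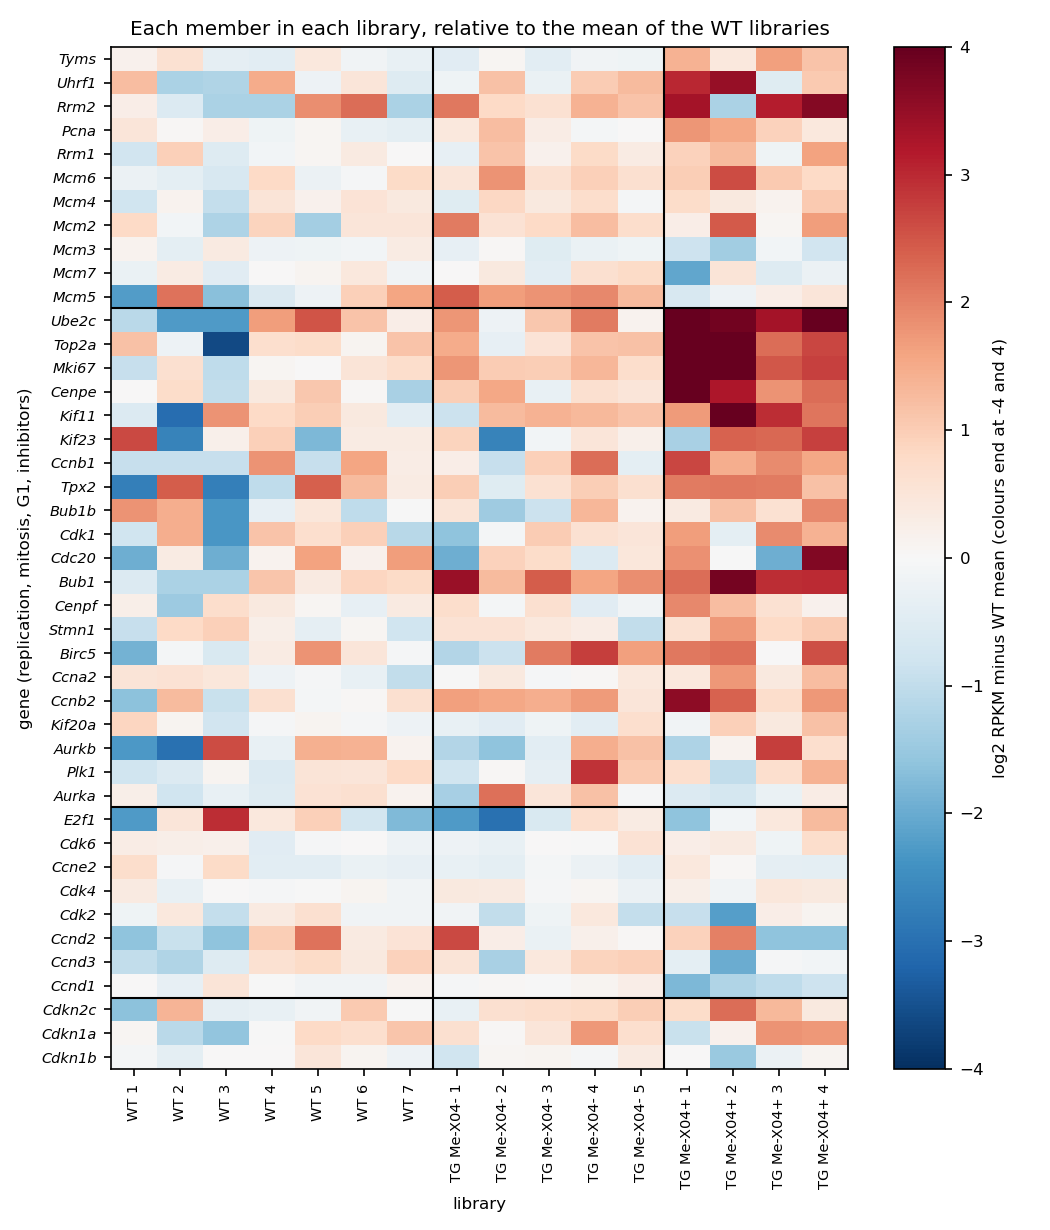
Each of the 43 members (rows, in the order replication, mitosis, G1, inhibitors) in each of the 16 libraries (columns), as log2 RPKM minus the mean of the 7 WT libraries, with colours from -4 to 4. The rows of Ube2c, Top2a, Mki67 and Cenpe are red in all 4 TG Me-X04+ columns, and Ccnd1 is blue there.

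Other genes of the same processes were counted from lists that name no member. Of 52 other replication genes measured, 0 rose and 1 (1.92%) fell between the TG fractions, with a median log2FC of 0.16. That gene was Cdc7, the kinase that fires replication origins, which read -2.24, 0.16, -1.33, -1.80 and -0.70 log2 RPKM in TG Me-X04- against -5.45, -5.45, -1.82 and -3.26 in TG Me-X04+ libraries (log2FC -2.81, SE 0.74, adjusted p = 0.0327, limma). Of 56 other mitosis genes, 2 rose (3.57%, near the 3.44% of all genes) and 0 fell. Their median was 0.57, and 43 were above 0 (76.8%, against 44.4% of all genes), which became 33 after scaling by reads outside mitochondrial genes. Ndc80, the kinetochore protein that grips microtubules, read -1.32, -0.33, -1.08, -0.57 and -1.64 in TG Me-X04- against 2.04, 1.77, 1.01 and 1.28 in TG Me-X04+ libraries (log2FC 2.51, SE 0.58, adjusted p = 0.0177, limma). H2afz, a histone variant whose RNA peaks in dividing cells but is present in others too, rose by less (0.78, SE 0.19, adjusted p = 0.0246, limma). The fractions did not overlap for 9 of the 56 genes, higher in TG Me-X04+, where 4.8% of all genes did so. Of 45 further control genes 0 rose and 2 fell (4.44%): E2f3, an activator E2F (-1.18, SE 0.26, adjusted p = 0.0122, limma), and Cdkn1c (p57), an inhibitor (-2.52, SE 0.72, adjusted p = 0.0499, limma). Of 24 genes of a p53 list (targets, with Trp53 itself and Mdm4 included) 0 were called by limma. Among them 5 (20.8%) were at an unadjusted p under 0.05, near the 18.7% of all genes, and the median log2FC was -0.33. Ccng1 and Btg2 stood in both the p53 and the control list. By limma, Ndc80 was lost without TG Me-X04- replicate 5 (adjusted p = 0.0522) or TG Me-X04+ replicate 2 (0.0509), and H2afz without TG Me-X04- replicate 3 or 5 or TG Me-X04+ replicate 2 or 4 (adjusted p from 0.0509 to 0.0728). Cdc7, with 0 reads in TG Me-X04+ libraries 1 and 2, was lost without TG Me-X04- replicate 2, 3 or 5 or TG Me-X04+ replicate 1 or 2 (adjusted p from 0.0587 to 0.105). TG Me-X04+ libraries 1 and 2 also had the most genes at 0 reads, 1831 and 1781. Cdkn1c was lost without any 1 TG library but TG Me-X04+ replicate 2 (adjusted p from 0.0623 to 0.131), whereas E2f3 passed without each of them. With mouse as a replicate block in the TG libraries alone, Ndc80 was the only 1 of the 5 that passed: E2f3 was at -1.16 (adjusted p = 0.0727), Cdc7 at -2.69 (0.161), Cdkn1c at -2.70 (0.0659) and H2afz at 0.65, under the fold threshold. H2afz was lost in 7 of 16 alternatives, at 0.33 after quantile normalization (adjusted p = 0.331) and 0.39 after scaling by reads outside mitochondrial genes (adjusted p = 0.133), all by limma. Within set A and set B the differences were 2.72 and 2.24 for Ndc80, 0.51 and 0.96 for H2afz, -4.41 and -1.26 for Cdc7, -1.71 and -0.74 for E2f3, and -1.72 and -3.54 for Cdkn1c.

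Between TG Me-X04- and WT microglia 0 genes of the 4 lists were called by limma, with 1 replication (1.92%), 4 mitosis (7.14%), 1 control (2.22%) and 3 p53 genes (12.5%) at an unadjusted p under 0.05, against 5.18% of all genes. Between TG Me-X04+ and WT, 9 other mitosis genes rose (16.1%, against 8.25% of all genes) and 0 fell, led by Hmmr (log2FC 3.29), Aspm (3.27), Ndc80 (2.83) and Knl1 (2.66), which act at the spindle and kinetochore. Other replication genes rose in 4 cases (7.69%, no more than the share of all genes), among them Pole (2.87), the leading strand polymerase, Ticrr (2.80) and Timeless (2.51), and fell in 1, Cdc7 (-2.86). In the control list 2 rose (4.44%), E2f8 (3.18) and E2f6 (1.58), and 3 fell (6.67%, near the 6.02% of all genes), among them Cdkn1c (-2.48) and E2f3 (-0.94). Of the p53 list Tigar (2.50) and Pmaip1 (1.25) rose (8.33%) and Sesn1 (-1.02) fell (4.17%), both near the shares of all genes. Without 1 library the calls of Ticrr (TG Me-X04+ 2), Timeless (WT 7, TG Me-X04+ 1, 2 or 3), Cdkn1c (TG Me-X04+ 3 or 4), E2f3 (TG Me-X04+ 2), Tigar (TG Me-X04+ 1 or 2) and Pmaip1 (8 of 11 libraries) were lost, at adjusted p from 0.0518 to 0.149 by limma. On log2(RPKM + 1) the calls of Pole (0.21), Ticrr (0.49), Timeless (0.33), Cdc7 (-0.43) and Cdkn1c (-0.78) were lost. Ticrr and Timeless missed only the fold threshold there, at adjusted p = 0.0179 and 0.0423 by limma. A pseudocount of 1 shrinks the log2FC of low genes, so the same threshold is harder to reach. Library quality weights lost those of Aspm, Ticrr, Timeless, E2f3 and Tigar, at adjusted p from 0.0568 to 0.198 by limma. Over all alternatives and fits without 1 library, the log2FC went down to 1.03 for Hmmr, 0.71 for Aspm, 1.40 for Ndc80 and 0.75 for Knl1.

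The scaling between libraries moved the level of all genes. After scaling by reads outside mitochondrial genes the median log2FC of all genes between the TG fractions was -0.49 in place of -0.09, and the calls were 249 higher and 948 lower (20.8% higher) in place of 617 and 369 (62.6%). Quantile normalization gave 421 and 407 (50.8%). The median of the mitosis members was 0.57 after scaling by reads outside mitochondrial genes and 1.59 after quantile normalization, against -0.49 and -0.05 for all genes. Mki67 and Ccnd1 were the 2 members called after scaling by reads outside mitochondrial genes.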

How the data were processed

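Total RNA from sorted microglia (16 libraries: 7 of WT mice, 4 of the TG Me-X04+ fraction, 5 of the Me-X04- fraction) had been amplified with Ovation kits and sequenced. The authors trimmed reads with Trim Galore 0.4.4, aligned them with STAR 2.5.4b to GRCm38, counted them with featureCounts, filtered low genes and scaled libraries by TMM in edgeR 3.24.3. They deposited log2 RPKM for 17951 genes; whether counting used strand is not given in the sources used here, nor which of the sequencers read which library. Columns of the authors' own comparisons (fold changes, test statistics and p-values) were not used. The deposited symbols were used where given, and reference symbols were filled in for 4874 genes.

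The log2 RPKM values as deposited were fitted in limma 3.58.1 (R 4.3.3) over all genes and the 3 groups, with a variance trend; no count test was run on these log values. A gene was called at a Benjamini-Hochberg adjusted p under 0.05 with an absolute log2FC of at least 0.7. Fold changes of low genes are understated by the authors' prior count. Every value came out as a whole number of reads (100% within 0.01), which gave the read numbers. Promoters were RefSeq windows, and gene positions were from GENCODE M21. Same-numbered TG libraries carry 1 label in both fractions, from which the pairing by mouse was taken. The correlation of their deviations averaged 0.317 (4 pairs, lowest 0.292), against 0.272 for 6 pairs of other numbers in the same set, so the values themselves hardly tell the numbers apart. WT samples of the same number are other animals. The main p-values set each difference against the spread between libraries within groups. They treat the libraries as independent and ignore that both TG fractions came from the same mice. With mouse as a replicate block in the TG libraries alone, Tyms and Cenpe lost their calls (adjusted p = 0.104 and 0.0595, limma). Alternatives covered the variance model, scaling, pseudocounts of 1 and 0.1, a filter at a mean log2 RPKM over 0, replicate blocks, the 2 sets and leaving out each library.

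All members called in any comparison are named, with a preset list of regulators, and of each other list up to 4 called genes with the largest change. The members and lists were chosen with earlier results of these data known.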

Additional observations from a re-analysis of the deposited data

Results flagged for a closer look

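Of 156 sets of values (a gene or a list mean in 1 group), 16 (10.3%) held a library that stood apart by Dixon's criterion at 95%, where chance flags about 1 in 20. In TG Me-X04+ these were Mcm6 (2.39 log2 RPKM in library 2, nearest 0.847), Rrm2 (-4.86 in library 2, with 0 reads), Kif23 (-3.79 in library 1), Tpx2 (-1.73 in library 4), Ccnd3 (0.0960 in library 2) and the mean of the p53 list (1.25 in library 4). In TG Me-X04- library 5 stood apart for Ccnb2 (-0.697), Kif20a (1.70) and Stmn1 (-0.378), and library 1 for Kif11 (-2.78), Ccnd2 (-2.39) and Cdkn2c (-1.42). TG Me-X04- library 2 stood apart for Kif23 (-5.16), Tpx2 (-3.39) and Ccnd3 (0.781). In WT, Top2a was at -5.79 log2 RPKM in library 3, on 1 read.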

How the results depend on the processing

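Between the TG fractions the 4 members called became 2 after scaling by reads outside mitochondrial genes. They were 7 on log2(RPKM + 1), with mouse as a random effect or with a term for the 2 sets. Calls over all genes changed too, from 617 higher and 369 lower to 249 and 948 after that scaling. On log2(RPKM + 1) they were 727 and 253, with the random effect 1127 and 983, and with the term 1324 and 818. The sets were drawn from these same values, so the term lowers the spread by construction. Without 1 library the members called were 3 to 4. The 5 other pathway genes called became 3 without a variance trend, with library quality weights or with median centring, 8 after quantile normalization or scaling by reads outside mitochondrial genes, 2 with the filter at a mean log2 RPKM over 0, 1 with only the 2 groups compared, 12 with the term for the 2 sets, and 2 to 4 without 1 library. Between TG Me-X04- and WT, 0 members were called in each alternative run, and other genes were 0 except 4 with quality weights. Between TG Me-X04+ and WT the 11 members became 6, and the 22 other genes 8, with the filter on low genes, which tests fewer genes; without 1 library the members were 9 to 12 and the others 15 to 24. No direction of a called gene reversed.

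With a replicate block the members called between the TG fractions were 3 (mouse, TG libraries only), 7 (mouse as random effect) and 4 (replicate number, which for WT is only a number), and the other genes 3, 14 and 4. Over all genes these blocks called 849 higher and 230 lower, 1127 and 983, and 584 and 310. Of the 5 other genes called without a block, Ndc80 alone was among the 3 called with mouse in the TG libraries only. Against WT the block by number left 8 members and the random effect 11 in the TG Me-X04+ comparison, while TG Me-X04- had 0 under both.

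Low read numbers limit Ccnb1, Cdk1, Rrm2, Bub1, Ccnd2 and E2f1, whose missed thresholds do not show equal levels. Age, genotype and 2 sets of libraries limit what the comparisons with WT can part. The causes of these shifts were not tested.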
